A study of Saccharomyces cerevisiae with 6 samples.

Results

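Aminoacyl-tRNA synthetases load each tRNA with its amino acid. The genes described here were the 36 synthetase genes of the nuclear genome of *Saccharomyces cerevisiae* plus ARC1, a cofactor of 2 of the enzymes. They were found by gene symbol or locus tag, and all 37 had a row among the 5793 features measured. The enzymes of 14 of these genes were counted as working only in mitochondria, and the other 23 genes were treated as cytosolic or dual. Cells of strain BJ5464, which the labels give as auxotrophic through loss of URA3, were grown in rich glucose medium at 28 °C. Part of the culture was then heat shocked at 37 °C for 20 min (3 libraries), and the other part stayed under optimal growth (3 libraries). All 6 libraries came from aliquots of this one culture, so the errors below cover sampling, extraction and sequencing, and not differences between cultures.

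Yeast makes protein in 2 places, the cytosol and the mitochondrial matrix, and each needs its own charged tRNAs. For most amino acids one nuclear gene encodes the cytosolic enzyme and a second gene the mitochondrial enzyme. A few genes serve both places, usually through alternative start codons that add or omit a mitochondrial targeting sequence. Synthetases fall into class I and class II, which have unrelated catalytic folds. Free, uncharged tRNA activates the kinase Gcn2, which raises translation of GCN4, the activator of amino acid synthesis genes.

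Each gene had 1 deposited log2 fold change, positive where heat shock was higher, together with its log2 mean CPM (reads of a gene as a share of its library), p-value and FDR. No value per library and no read depth could be given. The standard errors (SE) below were inferred from each fold change and its p-value, and the 95% intervals rest on them. CPM is relative to each library, and how the libraries were scaled is not given in the sources used here. Less RNA of a gene per cell and more RNA of other genes therefore cannot be told apart.

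Most cytosolic or dual synthetase genes took a lower share of the mRNA libraries after heat shock, and most mitochondrial-only genes a higher one. At an edgeR FDR under 0.05, 12 of the 14 mitochondrial-only genes were higher and 0 were lower after heat shock. Among the 23 cytosolic or dual genes, 20 were lower and 1, GRS2, was higher. Over all features, 38.6% were called higher and 36.6% lower. As a median, the log2 fold change was 0.43 for the mitochondrial-only genes (0.02 to 0.91) and -0.57 for the cytosolic or dual genes (-0.88 to 0.82), so that the medians differed by 1.01. Over all features the median was 0.02. Without GRS2, the fold changes of the 22 remaining cytosolic or dual genes (-0.88 to -0.14) did not overlap those of the mitochondrial-only genes. Their intervals were not fully separate. The interval of the mitochondrial-only gene ISM1 (-0.10 to 0.14) overlapped those of the cytosolic genes ARC1 (-0.29 to 0.01) and FRS1 (-0.37 to -0.01). That of the mitochondrial-only gene MSM1 (0.004 to 0.20) narrowly overlapped that of ARC1. The changes were moderate. A fold change of at least 0.5 in either direction was reached by 4 mitochondrial-only genes, all higher, and by 14 cytosolic or dual genes, of which 13 were lower. The same threshold called 18.3% of all features higher and 16.1% lower.

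**Figure D1:**
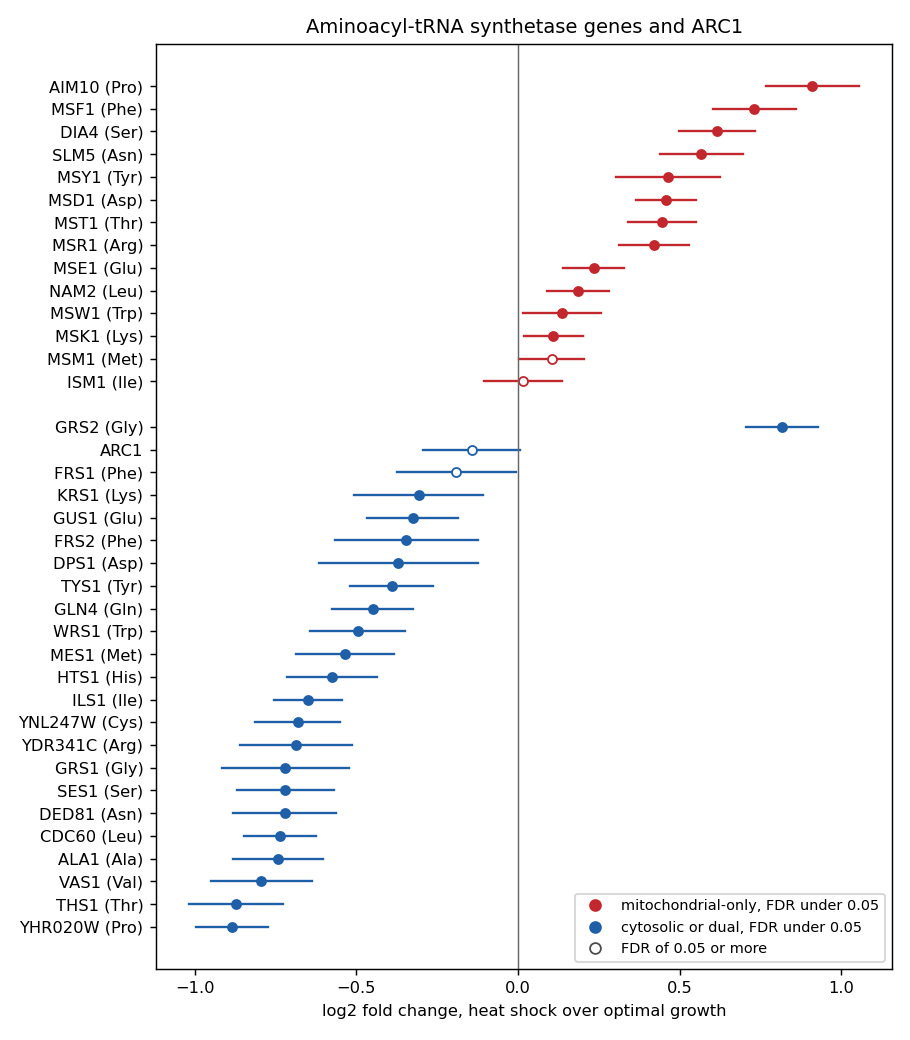
Log2 fold change (heat shock over optimal growth, x axis) of each of the 37 genes, with the mitochondrial-only genes above the cytosolic or dual genes. Lines are approximate 95% intervals and open points have an FDR of 0.05 or more. The mitochondrial-only points lie at or above 0.02, and GRS2 is the one cytosolic or dual gene to the right of 0.

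AIM10, MSF1 and DIA4 had the highest fold changes among the mitochondrial-only genes. AIM10 (YER087W, chromosome V, 330576 to 332306, plus strand), annotated as similar to tRNA synthetases and counted here as the prolyl enzyme, rose by 0.91 on the log2 scale (SE 0.07, edgeR FDR 1.82e-34). Its derived CPM was 66.9 after heat shock and 35.6 under optimal growth. MSF1, the monomeric phenylalanyl enzyme, rose by 0.73 (SE 0.06, edgeR FDR 7.93e-29). DIA4, annotated as the probable seryl enzyme, rose by 0.62 (SE 0.06, edgeR FDR 1.81e-24). The intervals of MSF1 and AIM10 overlapped, as did those of MSF1 and DIA4.

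Another 5 genes followed between 0.42 and 0.57. They were SLM5 (asparaginyl, 0.57), MSY1 (tyrosyl, 0.46), MSD1 (aspartyl, 0.46), MST1 (threonyl, 0.44) and MSR1 (arginyl, 0.42). MSE1, the glutamyl enzyme, was higher by 0.23. NAM2, the leucyl enzyme that also helps to splice mitochondrial introns, was higher by 0.19, and MSW1, the tryptophanyl enzyme, by 0.14. The 3 lowest were MSK1, MSM1 and ISM1. MSK1, which charges lysine and takes part in the import of a cytosolic lysine tRNA into mitochondria, was higher by 0.11 (SE 0.05, edgeR FDR 0.0271). The methionyl gene MSM1 had 0.10 (SE 0.05, edgeR FDR 0.0550) and the isoleucyl gene ISM1 0.02 (SE 0.06, edgeR FDR 0.821). Neither passed the threshold, and the interval of ISM1 ran from -0.10 to 0.14. Within the mitochondrial-only genes the 7 of class II had a median of 0.57 and the 7 of class I a median of 0.19. All 7 class II genes were called higher, against 5 of class I, beside 38.6% of all features. These counts turn partly on the threshold, since MSK1 of class II (0.11) was called and MSM1 of class I (0.10) was not.

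Among the cytosolic or dual genes, the lowest fold changes were those of YHR020W, THS1 and VAS1. YHR020W (chromosome VIII, 143996 to 146062, plus strand), the prolyl enzyme, fell by 0.88 on the log2 scale (SE 0.06, edgeR FDR 2.79e-53). Its derived CPM was 309.4 after heat shock and 571.4 under optimal growth. THS1, the threonyl enzyme, fell by 0.87 (SE 0.07, edgeR FDR 8.75e-32). VAS1, the dual valyl enzyme, fell by 0.79 (SE 0.08, edgeR FDR 5.91e-23). The intervals of these 3 genes overlapped, so their order was not resolved.

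Another 9 genes lay between -0.74 and -0.57, with overlapping intervals. They were the dual genes ALA1 (alanyl, -0.74), GRS1 (glycyl, -0.72), YNL247W (cysteinyl, CRS1 in the annotation, -0.68) and HTS1 (histidyl, -0.57), and the cytosolic genes CDC60 (leucyl, -0.74), DED81 (asparaginyl, -0.72), SES1 (seryl, -0.72), YDR341C (arginyl, -0.69) and ILS1 (isoleucyl, -0.65). MES1 (methionyl, -0.53), WRS1 (tryptophanyl, -0.50), GLN4 (glutaminyl, -0.45), TYS1 (tyrosyl, -0.39), DPS1 (aspartyl, -0.37), FRS2 (-0.35), GUS1 (-0.33) and KRS1 (lysyl, -0.31) fell less. All 6 dual genes were called lower (median -0.70), as were 14 of the 17 cytosolic genes that are not dual (median -0.50). Over all features 36.6% were lower. In the cytosolic or dual set, class I had a median of -0.59 over 10 genes and class II a median of -0.65 over 12 genes.

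ARC1, GUS1 and MES1 encode the subunits of 1 complex, in which Arc1 recruits tRNA to the methionyl and glutamyl enzymes. ARC1 had a log2 fold change of -0.14 (SE 0.08, edgeR FDR 0.0802) and did not pass the threshold. GUS1 fell by 0.33 (SE 0.07, edgeR FDR 1.01e-05) and MES1 by 0.53 (SE 0.08, edgeR FDR 1.96e-11). The log2 fold change of MES1 minus that of ARC1 was -0.39, with an approximate 95% interval of -0.61 to -0.18. For GUS1 minus ARC1 the difference was -0.18, and its interval of -0.39 to 0.02 included 0. For MES1 minus GUS1 it was -0.21, with an interval of -0.42 to -0.001 that came close to 0. FRS2 and FRS1 encode the alpha and beta subunits of the cytosolic phenylalanyl enzyme. FRS2 fell by 0.35 (SE 0.11, edgeR FDR 0.00329), and FRS1 had -0.19 (SE 0.09, edgeR FDR 0.0547). Their difference was -0.15 (-0.44 to 0.13), so the subunits were not told apart. Per kb of coding length, their mean levels were 265.7 CPM for FRS2 and 277.2 CPM for FRS1.

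GRS2 and GRS1 are paralogs from the whole genome duplication. GRS1 serves both compartments, and the annotation describes GRS2 as a glycyl enzyme not expressed in normal growth and induced by heat and other stresses. GRS2 (YPR081C, chromosome XVI, 702114 to 703970, minus strand) rose by 0.82 on the log2 scale (SE 0.06, edgeR FDR 2.00e-46). GRS1 (YBR121C, chromosome II, 481364 to 483367, minus strand) fell by 0.72 (SE 0.10, edgeR FDR 1.73e-12). The difference was 1.54, with an interval of 1.31 to 1.76. Derived CPM of GRS2 was 64.6 after heat shock and 36.7 under optimal growth, and that of GRS1 was 470.4 after heat shock and 774.4 under optimal growth. Per kb, GRS1 stood 6.74-fold above GRS2 after heat shock and 19.6-fold above it under optimal growth.

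The 2 coding sequences were 66.4% identical over 1833 aligned bases. The longest stretch they shared exactly was 17 bases, at positions 1033 to 1049 of GRS2 and 1153 to 1169 of GRS1, counted from the first base of each start codon. It is printed because a longer read without errors can match only 1 of the genes.
Longest stretch shared by GRS2 and GRS1: tggattgaatgtgtcgg
None of the 37 genes had a 50-base word that occurs elsewhere in the genome, none overlapped another annotated gene, and each had 1 exon. The effect of reads with several matches was not tested. The libraries were stranded, but the strand setting of the counting is not given in the sources used here.

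For 14 amino acids a mitochondrial-only enzyme could be set beside the cytosolic or dual enzyme of the same amino acid, which gave 15 pairs because the phenylalanyl enzyme has 2 genes in the cytosol. In all 15 pairs the mitochondrial gene had the higher log2 fold change, and all 15 approximate 95% intervals of the difference lay above 0. The signs follow from the ranges of the sets given above, since GRS2 entered no pair, so they are not a separate result. MSF1 entered 2 of the pairs. The difference (mitochondrial minus cytosolic) had a median of 0.92. It was largest for proline, at 1.79 (AIM10 0.91, YHR020W -0.88, interval 1.61 to 1.98). Serine (1.33), threonine (1.32) and asparagine (1.29) followed, and their intervals overlapped one another. Lysine had the smallest difference, 0.42 (MSK1 0.11, KRS1 -0.31, interval 0.20 to 0.64). Both genes of a pair were measured in the same libraries, so their errors need not be independent.

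**Figure D2:**
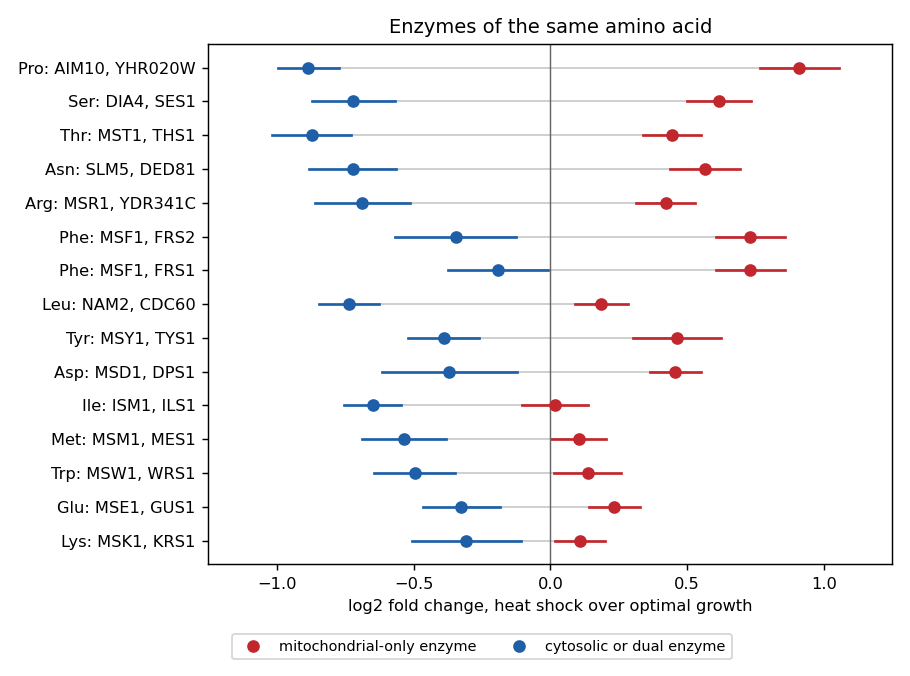
Log2 fold change (heat shock over optimal growth, x axis) of the mitochondrial-only and the cytosolic or dual enzyme of the same amino acid, 1 row per pair, with approximate 95% intervals. The gap grows from 0.42 for lysine in the lowest row to 1.79 for proline in the highest.

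Levels differed between the sets as well. Mean CPM per kb of coding length ran from 15.8 (ISM1) to 53.6 (MSK1) in the mitochondrial-only genes, and from 138.1 (YNL247W) to 587.9 (KRS1) in the cytosolic or dual genes without GRS2, which had 27.3. The median was 32.1 CPM per kb for the mitochondrial-only genes and 222.0 CPM per kb for the cytosolic or dual genes. ARC1 (528.5 CPM per kb) was the next most abundant after KRS1. Within a pair, the cytosolic gene stood above its mitochondrial counterpart by a median of 5.49-fold after heat shock and 10.6-fold under optimal growth. Summed over each set, the derived CPM of the mitochondrial-only genes was 917.1 after heat shock and 714.9 under optimal growth, a ratio of 1.28. That of the cytosolic or dual genes was 8974 after heat shock and 13135 under optimal growth, a ratio of 0.683. As a share of all derived CPM, the cytosolic or dual genes took 0.912% after heat shock and 1.29% under optimal growth.

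**Figure D3:**
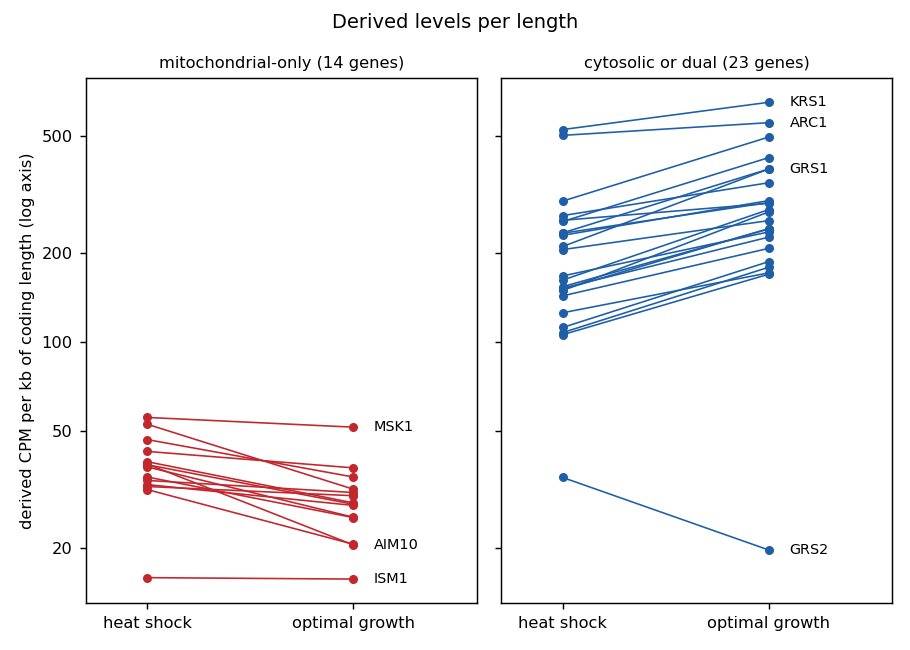
Derived CPM per kb of coding length (log axis) of each gene after heat shock and under optimal growth, with the 14 mitochondrial-only genes on the left and the 23 cytosolic or dual genes on the right. Each line is 1 gene. In the left panel the heat shock point is the higher one of each gene, and in the right panel it is the lower one except for GRS2.

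Abundance moved with the difference between the sets. The log2 mean CPM ran from 5.13 to 6.75 in the mitochondrial-only genes and from 8.04 to 10.03 in the cytosolic or dual genes without GRS2. The 2330 features in the first range had a median log2 fold change of 0.02, and 39.0% of them were higher. The 648 features in the second range had a median of -0.20, and 53.5% were lower. The middle 50% of features ran from -0.24 to 0.30 in the first range and from -0.80 to 0.25 in the second. The mitochondrial-only median of 0.43 lay above the first of these spans, and the cytosolic or dual median of -0.57 lay within the second. GRS2, at a log2 mean CPM of 5.66, had the abundance of the mitochondrial-only genes. The part of abundance in the difference was not tested.

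**Figure D4:**
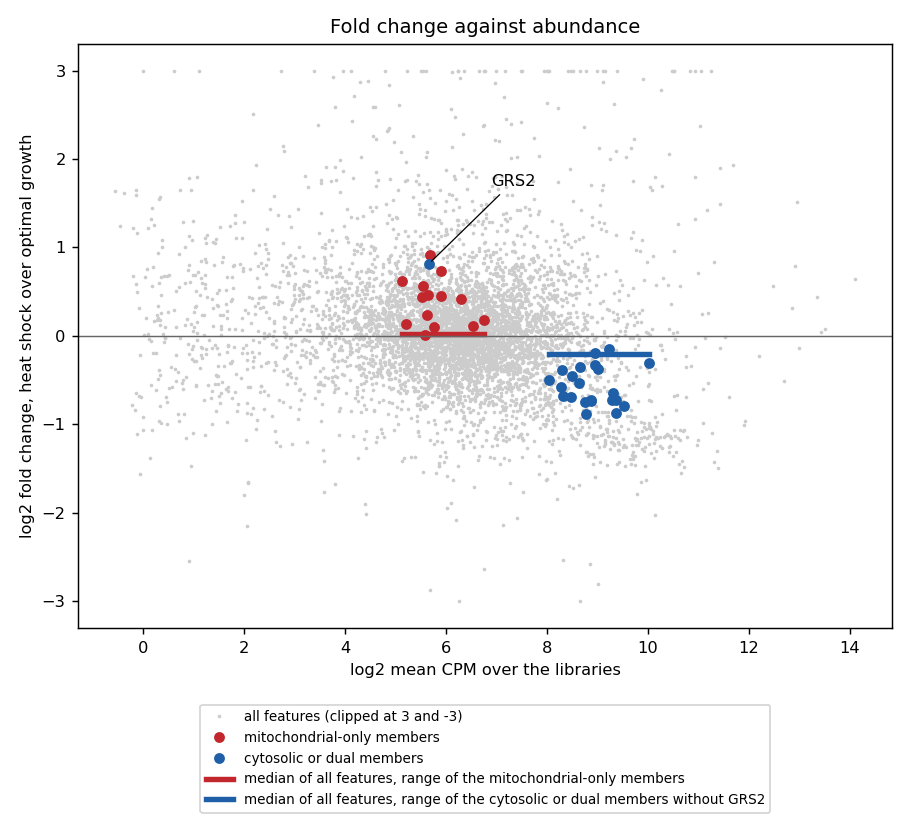
Log2 fold change (heat shock over optimal growth) against log2 mean CPM for all 5793 features and the 37 genes, with fold changes beyond 3 and -3 drawn at those limits. Bars mark the median of all features in the abundance range of each set, 0.02 for the mitochondrial-only range and -0.20 for the cytosolic or dual range without GRS2.

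The 300 bases before each annotated start codon were searched on both strands for short motifs, in the synthetase genes and in 6001 genes in all. TGACTC, the core of the site of Gcn4, was present before 1 of 14 mitochondrial-only genes (MSW1) and 10 of 23 cytosolic or dual genes (ALA1, ARC1, DED81, ILS1, KRS1, THS1, VAS1, YDR341C, YHR020W and YNL247W), beside 7.77% of all windows. DED81 and YHR020W share 1 of these sites, and that of ARC1 directly abuts its start codon. AGGGG, the core of the stress response element bound by Msn2 and Msn4, was present before 4 mitochondrial-only genes (AIM10, DIA4, MSK1 and MSM1) and 1 cytosolic or dual gene (FRS2), beside 22.2% of all windows. GAANNTTC, a pair of units of the site of the heat shock factor Hsf1, was present before 3 mitochondrial-only genes (MSD1, MSE1 and MSF1) and 2 cytosolic or dual genes (GLN4 and THS1), beside 11.5% of all windows. The other orientation, TTCNNGAA, was present before 4 mitochondrial-only and 6 cytosolic or dual genes, beside 13.1% of all windows, and its match in MSF1 overlapped that of GAANNTTC. GATGAG, the core of the PAC element found before genes of ribosome synthesis, was present before 1 mitochondrial-only and 5 cytosolic or dual genes, beside 19.1% of all windows. The window of GRS2 held none of these motifs. The windows of 17 of the 37 genes ran into the neighbouring gene, and the GAANNTTC of MSE1, 289 bases before its start, lay inside SMC5, which ends 270 bases away. These matches describe sequence only.

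DED81 and YHR020W, 2 of the genes that fell, are transcribed away from each other across 437 bases on chromosome VIII. Their log2 fold changes differed by 0.16, with an interval of -0.03 to 0.36. A single TGACTC in this gap lies in the window of both genes, 255 bases before the start of DED81 and 176 before that of YHR020W. TGACTC also lay before KRS1 (log2 fold change -0.31) and ARC1 (-0.14), and AGGGG before MSK1 (0.11) and MSM1 (0.10), genes that changed less. The 30 bases around matches are shown to set this shared site beside those of THS1 and VAS1, the other lowest genes, and the AGGGG match of AIM10, the highest. Each is read 5′ to 3′ on the strand of the named gene from assembly R64, and capitals mark the motif, which appears as GAGTCA or CCCCT where it lies on the opposite strand.
YHR020W, chrVIII:143802-143831, plus strand: taagcgatgcttGAGTCActgaatgtcttg
THS1, chrIX:212283-212312, plus strand: ttactgtttaaaTGACTCttaccttgtgat
VAS1, chrVII:672076-672105, plus strand: atttttttagaaGAGTCAcccatacagcct
AIM10, chrV:330372-330401, plus strand: tcttccagttttCCCCTtttatttcctgta

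Adjacent genes did not always move with the synthetase gene. ILS1 starts 237 bases from the end of SSA3, which encodes a heat shock protein of the Hsp70 family and had a log2 fold change of 3.14, while ILS1 fell by 0.65. MSR1 starts 310 bases from the end of HXT4, a hexose transporter gene that had -2.53, while MSR1 was higher by 0.42. DIA4, which rose by 0.62, follows RPL27A, a ribosomal protein gene that had -1.05. Other neighbours moved with the synthetase gene, such as RPS28A (-1.26) beside GLN4 and SDS22 (0.90) beside MST1. All of these neighbours were picked after their values were seen.

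Other genes of tRNA metabolism gave context, and their counts stand beside the 38.6% of all features called higher and the 36.6% called lower. Of 9 genes listed around tRNA charging, including the GCN genes of the response to uncharged tRNA, 4 were higher and 5 lower (median -0.16). The 4 that rose were PET112 (0.42, edgeR FDR 1.60e-09), GTF1 (0.34), HER2 (0.28) and FMT1 (0.31). The first 3 of them form the mitochondrial complex that turns glutamate on the glutamine tRNA into glutamine, and FMT1 formylates the mitochondrial initiator tRNA. The 5 that fell were GCN1 (-0.93, edgeR FDR 1.57e-11), GCN4 (-0.67), GCN20 (-0.39), GCN2 (-0.33) and DTD1 (-0.16), which removes D-amino acids from tRNA. Of 6 measured elongation factor genes listed under tRNA delivery to the ribosome, 0 were higher and 3 lower. These were TEF4 (-1.03, edgeR FDR 2.38e-70), TEF1 (-0.88) and EFB1 (-0.26, edgeR FDR 2.26e-05). TEF1 and TEF2 are near-identical copies, so their separate values (TEF2 -0.13, edgeR FDR 0.202) are uncertain. TUF1, the mitochondrial elongation factor, had 0.08 (edgeR FDR 0.477).

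Of 61 genes of tRNA modification, 5 were higher and 50 lower, beside 38.6% and 36.6% of all features, with a median of -0.47. URM1, which passes sulfur to cytosolic tRNAs, had the lowest value, -1.47 (edgeR FDR 1.27e-91). RIB2, entered in the list under its alias PUS8, had the highest, 0.60 (edgeR FDR 1.41e-32). Of 23 genes of tRNA maturation and export, 3 were higher and 16 lower, beside the same shares of all features, with a median of -0.37. POP8, a subunit of nuclear RNase P, was the lowest at -1.20 (edgeR FDR 5.58e-40), and RPR2, also a subunit of that enzyme, was the highest at 0.30 (edgeR FDR 0.000117).

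**Figure D5:**
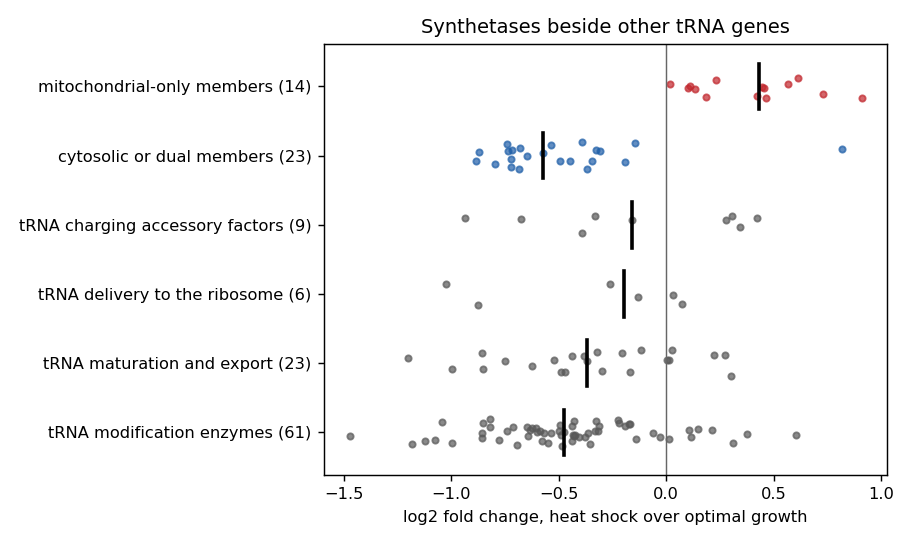
Log2 fold change (heat shock over optimal growth, x axis) of the 2 synthetase sets and of 4 other lists of tRNA genes, with the number of genes in brackets. Points are genes and black lines are medians, which run from -0.57 for the cytosolic or dual genes to 0.43 for the mitochondrial-only genes.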

How the data were processed

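mRNA of 6 stranded, polyadenylated RNA libraries was measured by RNA-Seq. Per the study's methods, the authors mapped reads by kalign on the repeat-masked assembly (R64, sacCer3), and the Trinity edgeR pipeline compared the treatments. The deposited table gives log2 fold changes, log2 mean CPM, p-values and FDR values. These are the authors' own comparison, used as deposited because no value per library was given. Read counter, count filter, normalization, edgeR test and dispersion are not given in the sources used here. Depth per library, and the precision it sets, is unknown.

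Adjusting the deposited p-values over all features by Benjamini-Hochberg returned the deposited FDR for each of the 5793 rows. SE was computed as the absolute fold change divided by the normal quantile of the two-sided p-value, and intervals as the estimate with 95% limits. The edgeR test may not follow the normal distribution, so these are approximate. Derived CPM per group takes the deposited mean CPM as midway between the groups. Names, coordinates (1-based) and sequences came from RefSeq assembly R64. One listed symbol, TSF1, matched no annotated gene. Sequence identity of GRS1 and GRS2 came from a global alignment (biopython 1.88).

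The members and gene lists were chosen with earlier results of these data known, so no list serves as independent support. Full statistics were given to the 3 highest and 3 lowest fold changes of the sets, GRS1 and GRS2, FRS1 and FRS2, and ARC1, GUS1 and MES1. Of each other list, the highest and lowest gene past the threshold were named with fold change and FDR. Other genes were named after their values were seen. The motif TTCNNGAA was added after the data were seen. Alternatives were FDR under 0.01 or 0.001, Bonferroni and Benjamini-Yekutieli adjustment, a minimum fold change, a minimum abundance, centring, means and other memberships. The code was tested on simulated data. Tables were handled with pandas 2.3.3 and numpy 2.4.6 in Python 3.11.15, tests with scipy 1.17.1 and statsmodels 0.14.6, and plots with matplotlib 3.10.9.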

Additional observations from a re-analysis of the deposited data

How the results depend on the processing

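The direction of both sets was kept under each alternative that left a call. Of the 37 genes, 33 passed FDR 0.05, and 31 at FDR 0.01, 28 at FDR 0.001, 27 with Bonferroni and 31 with Benjamini-Yekutieli adjustment. A minimum absolute log2 fold change of 0.5 left 18 genes, 4 of them mitochondrial-only. A minimum of 1 left 0 in either set, since the largest absolute value was 0.91 (AIM10). The abundance minimum removed none of the 37 genes. The cytosolic or dual median was -0.50 without the dual enzymes. The difference of the medians, 1.01, was 0.89 with means over the same 37 genes. It was 1.08 without ARC1 and GRS2 and 0.93 without the dual enzymes, where fewer genes entered. No paired analysis was possible because only 1 comparison per gene, without the libraries behind it, was at hand. Leaving out each library and another count model were not run on that account, and whether 1 library decides a result is unknown.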

Other observations

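Genes that modify the wobble uridine of mitochondrial tRNAs did not move together. These genes were picked after their values were seen. MSS1 rose by 0.37 on the log2 scale (SE 0.07, edgeR FDR 2.21e-08) and SLM3, which adds sulfur to this base, by 0.21 (SE 0.08, edgeR FDR 0.0098). MTO1, whose protein pairs with that of MSS1, fell by 0.62 (SE 0.06, edgeR FDR 2.95e-25). RPM2, a protein subunit of mitochondrial RNase P, fell by 0.49 (SE 0.05, edgeR FDR 4.21e-24).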
